A study of Rattus norvegicus with 25 samples.

Results

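8 mature microRNAs known as markers of brain, liver or pancreas were followed in small RNA libraries made from rat skeletal muscle mitochondria. They were chosen by name, whatever their counts, from the 764 rat mature miRNAs listed in the count table. They were rno-miR-128-3p, rno-miR-124-3p and rno-miR-9a-5p for brain, rno-miR-122-5p, rno-miR-122b, rno-miR-192-5p and rno-miR-194-5p for liver, and rno-miR-375-3p for pancreas, where rno stands for the rat and is left out from here on. The libraries came from the red portion of the gastrocnemius, a calf muscle, of 25 male Wistar-Kyoto rats. The trained group of 13 rats was put through treadmill running from 5 weeks of age, 5 days in each of 4 weeks. The sedentary group of 12 rats stood on a stationary treadmill for the same time. For all 25 rats, a bead-based kit sold for mouse tissue was used to isolate mitochondria out of roughly 100 mg of tissue, which were then treated with 312 µg of RNase A, which degrades RNA outside intact membranes, for 1 h at 37 °C. The labels describe no whole-muscle library and no library from liver, brain or pancreas, so each level below is a share of the miRNA counts of a mitochondrial preparation.

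A miRNA is a short RNA that guides a silencing complex to messenger RNAs, mainly by pairing through its seed, bases 2 to 8 from the 5′ end. Some miRNAs are made almost entirely in 1 tissue: miR-122 in hepatocytes, and miR-124 and miR-9 in neurons and their progenitors. miR-375 is abundant in pancreatic islet cells. The miR-192 and miR-194 family is abundant in liver, gut and kidney. miR-128 is most abundant in neurons, yet it is also made in skeletal muscle, where it rises as myoblasts differentiate, and it is processed from precursors that lie in introns of 2 host genes. miR-1, miR-133 and miR-206 are the classical muscle miRNAs.

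The mature sequences are printed because the seed decides which targets a miRNA can bind and because rows that share sequence could share reads. 6 of the 8 miRNAs had a mature sequence in the RefSeq table of the rat assembly GRCr8, and the seed is in capitals.
miR-128-3p: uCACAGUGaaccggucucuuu
miR-122-5p: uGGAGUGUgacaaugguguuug
miR-192-5p: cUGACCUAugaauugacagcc
miR-194-5p: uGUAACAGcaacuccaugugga
miR-9a-5p: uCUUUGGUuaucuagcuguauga
miR-375-3p: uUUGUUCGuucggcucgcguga
These 6 seeds all differ from each other. Among the mature rat miRNAs of that table, miR-215 alone shared a seed at the same position with any of them, that of miR-192-5p, and miR-215 had 0 counts in all 25 libraries. RefSeq gives miR-128-3p and miR-194-5p 2 precursors each, miR-9a-5p 3 precursors and the remaining miRNAs 1 precursor each. No source used here says whether a count covers all precursors of a mature sequence. The first 8 bases of miR-128-3p also occur in both miR-27 miRNAs, starting at base 2 in place of base 1, and are in capitals here.
miR-27a-3p: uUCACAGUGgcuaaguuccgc
miR-27b-3p: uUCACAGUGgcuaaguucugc
miR-27a-3p had 573 counts and miR-27b-3p 3275 counts over the 25 libraries, and after these 8 bases both differ from miR-128-3p.

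Library totals ran from 12181 to 202388 counts with a median of 73449, and 260 of the 764 rows had a count in any library, 40 of them in every library. Rows with near-identical counts were each kept in these totals, such as miR-1-3p (241423 counts) and miR-3571 (241335 counts). Counting such rows once would drop 16 rows, so levels and percentages are shares of listed counts rather than of separate reads. In the trained group, totals differed with the number in the sample title. The 6 trained libraries numbered 1 to 13 had 26793 to 43510 counts and the 7 numbered 14 to 32 had 72553 to 202388. For sedentary libraries the totals overlapped, at 30527 to 186006 (6 libraries) and 12181 to 106661 (6 libraries). The labels do not call these numbers a batch. The boundary was placed with the totals known, and results that differ between both ranges are given for each. The labelled tissue was checked against a list of muscle miRNAs. 10 of the 15 listed skeletal and cardiac muscle miRNAs had counts and together took 37.9% ± 4.84 of trained (SD, n = 13) and 35.1% ± 6.47 of sedentary libraries (SD, n = 12). This share counted each of the near-identical miR-133 rows. miR-3571 and miR-3557-5p, near-identical to the listed miR-1-3p and miR-378a-3p, were not on the list and entered the library totals only. The muscle share with such rows counted once was not calculated. The heart-enriched miR-208a-3p and miR-208b-3p were at 0. Of the 4 listed erythrocyte miRNAs, miR-451-5p, miR-144-3p and miR-144-5p were at 0, and miR-486, which is abundant in both erythrocytes and muscle and counted in the muscle share too, had 49420 counts (2.21% ± 1.29 of trained, SD, n = 13, and 3.04% ± 1.08 of sedentary libraries, SD, n = 12).

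miR-128-3p was the only one of the 8 seen in every library. It had 10883 counts in all, the 30th highest total in the table with near-identical rows ranked separately, and reached 10 counts in 25 of 25 libraries. Its mean level was 4822 ± 3278 CPM (counts per 1000000 counts of the library; SD, n = 25), or 0.482% ± 0.328 of a library. For scale, miR-1-3p had more counts than miR-128-3p in all 25 libraries, and its lowest library, at 51317 CPM, lay above the highest value of miR-128-3p. The next brain miRNA in abundance, miR-7a-5p, had 2416 counts and exceeded miR-128-3p in only 3 libraries, trained 25, sedentary 12 and sedentary 32.

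miR-128-3p varied widely from rat to rat. Across the 13 trained libraries the lowest value was 761 CPM (trained 10, 26 counts), the median was 3908 and the highest was 16753 (trained 26, 2297 counts). Across the 12 sedentary libraries the lowest was 196 CPM (sedentary 12, 15 counts), the median was 4435 and the highest was 9665 (sedentary 29, 735 counts). The groups overlapped over most of their ranges. Counting error was small beside this spread. The exact (Clopper-Pearson) 95% binomial interval was 110 to 324 CPM in sedentary 12 and 16080 to 17446 CPM in trained 26, and such intervals cover counting error only. Trained 26 alone held 21.1% of all miR-128-3p counts.

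**Figure D1:**
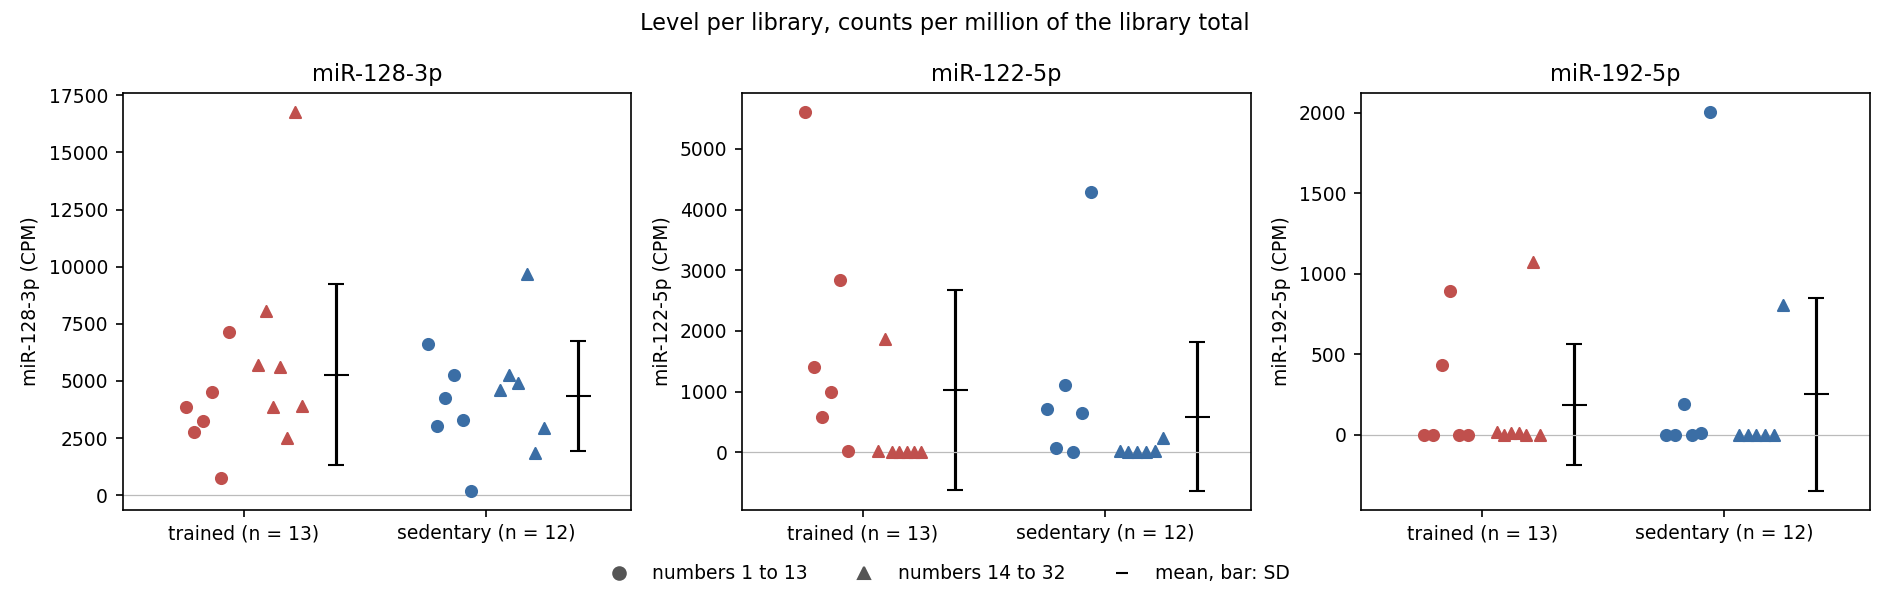
CPM of miR-128-3p, miR-122-5p and miR-192-5p in each library (circles for title numbers 1 to 13, triangles for 14 to 32), trained and sedentary, with the mean of each group as a dash and its SD as an error bar. miR-128-3p lies between 196 and 16753 CPM with groups that overlap, while miR-122-5p and miR-192-5p sit at or near 0 in most libraries and far above it in a few.

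Other arms of the miR-128 precursors were nearly absent. miR-128-2-5p had 17 counts, all in trained 10, the trained library with the lowest miR-128-3p, and miR-128-1-5p had 0.

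The liver miRNAs were present in some libraries and not in others. In such bulk preparations, fewer cells or mitochondria of a source and less RNA in each cannot be told apart. miR-122-5p, the main miRNA of hepatocytes, had 1175 counts in all. It had a count in 18 of 25 libraries and reached 10 counts in 11, 6 of them trained and 5 sedentary. In trained libraries its median was 24.5 CPM and its highest value 5598 CPM, in trained 1 (150 counts). In sedentary libraries the median was 46.8 CPM and the highest value 4291 CPM, in sedentary 12 (328 counts). 7 libraries, 3 trained and 4 sedentary, had no count, and 7 others had 1 to 3 counts. The 2 libraries with most counts, sedentary 12 and sedentary 7, held 45.5% of them.

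Detection of miR-122-5p moved with the title number. 9 of the 12 libraries numbered 1 to 13 reached 10 counts, against 2 of the 13 numbered 14 to 32, and 85.6% of its counts lay in the lower range. The mean level was 1523 ± 1795 CPM in the lower range (SD, n = 12) and 169 ± 516 CPM in the upper range (SD, n = 13). The 11 libraries that reached 10 counts had totals from 26793 to 186006 with a median of 69854, and the other 14 had totals from 12181 to 202388 with a median of 85203. The part of depth in this split was not tested. In 3 libraries, trained 1, trained 10 and sedentary 12, miR-122-5p had more counts than miR-128-3p, and in the other 22 it had fewer.

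miR-122b had 1169 counts and differed from miR-122-5p in 3 libraries only, by at most 4 counts. The pair shares reads, so miR-122b is no second detection and its values are not described further.

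miR-192-5p was rarer. It had 459 counts in 10 libraries and reached 10 counts in 6, 3 of each group. These were trained 5 with 17 counts, trained 6 with 24, trained 26 with 147, sedentary 7 with 36, sedentary 12 with 153 and sedentary 32 with 76. The other 4 libraries with any count had 1 or 2. Sedentary 12 and trained 26 held 65.4% of the total. Mean levels were 188 ± 374 CPM in trained (SD, n = 13) and 251 ± 598 CPM in sedentary libraries (SD, n = 12). miR-122-5p exceeded it in 17 libraries, both were equal in 4, and miR-192-5p was higher in 4, among them trained 26 (147 counts against 0) and sedentary 32 (76 against 22).

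The liver miRNAs were partly found in the same libraries. Both miR-122-5p and miR-192-5p reached 10 counts in 5 libraries, only miR-122-5p did so in 6, only miR-192-5p in 1 (trained 26), and neither in 13. miR-194-5p, whose precursor Mir194-2 lies 100 bases from that of miR-192 on the same strand in RefSeq, had 0 counts in all 25 libraries. Its opposite arm, miR-194-3p, had 23 counts, all in trained 10. Of the 9 listed liver miRNAs 4 had a count, miR-122b included, beside 260 of all 764 rows. The liver rows miR-122-3p, miR-192-3p, miR-194-5p, miR-215 and miR-802-5p had none. Leaving out miR-122b, the liver list took 0.127% ± 0.168 of trained (SD, n = 13) and 0.0843% ± 0.178 of sedentary counts (SD, n = 12), and reached 0.629% in its highest library.

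**Figure D2:**
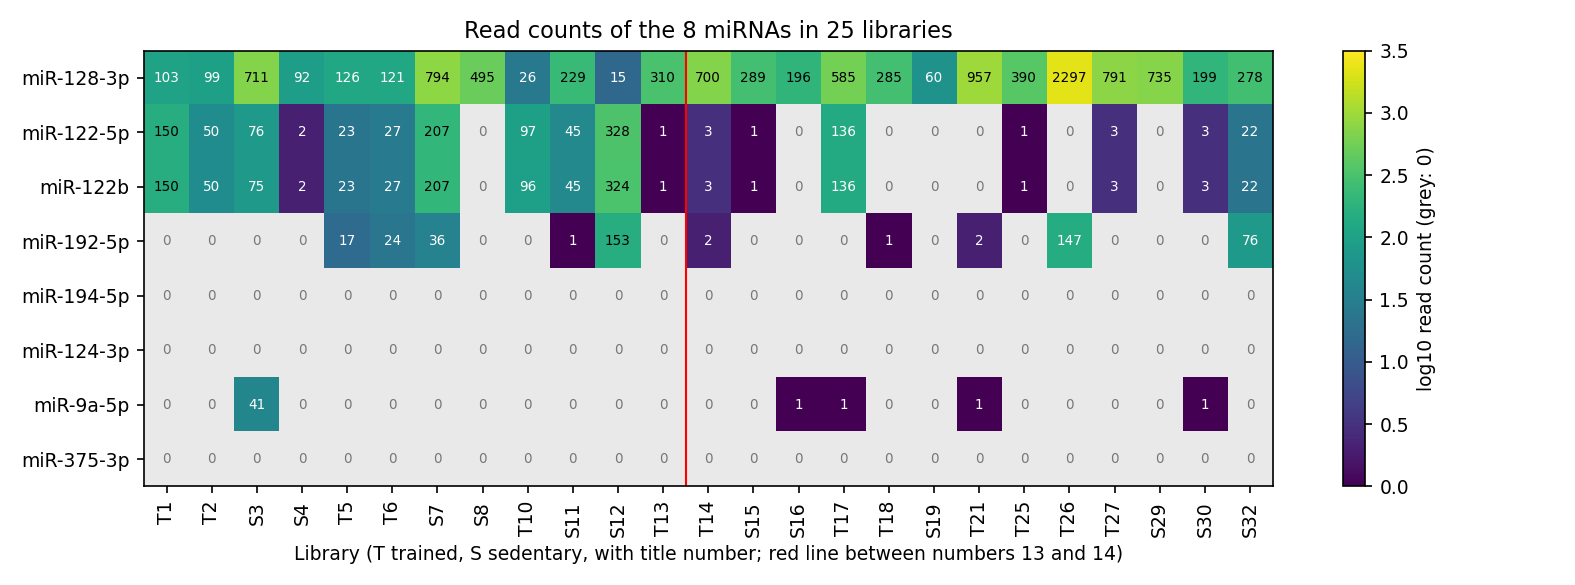
Raw counts of the 8 miRNAs (rows) in each library (columns, by title number), printed in each cell and coloured by log10 of the count, with grey cells at 0 and a red line between numbers 13 and 14. miR-128-3p fills its row, miR-122-5p and miR-122b are coloured mostly left of the line, and miR-194-5p, miR-124-3p and miR-375-3p are grey throughout.

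The 2 neuronal markers gave little or nothing. miR-9a-5p had 45 counts, 41 of them in sedentary 3 (383 CPM) and 1 each in trained 17, trained 21, sedentary 16 and sedentary 30. Without sedentary 3, no library held more than a single count of it. miR-124-3p had 0 counts in 25 libraries, and its opposite arm miR-124-5p had 5, all in sedentary 30. Over all libraries a count of 0 allows up to 1.43 CPM (3 counts of the pooled total). This pooled limit covers counting error only, not the spread between rats. For a single library this limit ran from 14.8 CPM in the deepest to 246 CPM in the shallowest, so a low level in one shallow library could not be detected. Of the 21 listed brain miRNAs 10 had a count, beside 260 of all 764 rows. Of these 10, only miR-128-3p and miR-7a-5p passed the filter on low counts described with the test. The other eight were miR-9a-5p, miR-128-2-5p, miR-124-5p, miR-218a-5p (114 counts, 81 of them in sedentary 3), miR-488-3p (49 counts), miR-129-5p (18 counts), miR-7b (5 counts) and miR-383-5p (2 counts). Sedentary 3 thus had most of the raw counts of both miR-9a-5p and miR-218a-5p, but by CPM the highest miR-218a-5p value was in a trained library (1008 against 756 CPM in sedentary 3). Without miR-128-3p, the brain list took 0.107% ± 0.109 of trained (SD, n = 13) and 0.157% ± 0.114 of sedentary counts (SD, n = 12). Most of this share was 1 row, since miR-7a-5p held 2416 of the 2671 counts of that list.

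None of the 5 listed pancreas rows had a count, beside 260 of all 764 rows. miR-375-3p, its opposite arm miR-375-5p, miR-216a-5p, miR-216b-5p and miR-217-5p all had 0 counts in the 25 libraries. The same pooled limit of 1.43 CPM applies, again for counting error only. miR-7a-5p, described with the brain list, is also abundant in islet cells and is not on the pancreas list.

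In order of total counts the 8 miRNAs were thus miR-128-3p, miR-122-5p with miR-122b, miR-192-5p, miR-9a-5p, and then the others, at 0. The order of neighbours held in most but not all libraries from miR-128-3p to miR-122-5p. It did not hold beyond the spread for miR-192-5p and miR-9a-5p, which were equal in 11 libraries.

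The comparison of trained with sedentary rats asks whether 4 weeks of running changed these levels. No change was detected in any of the 5 with a count. The edgeR quasi-likelihood test, run on the 76 rows that passed edgeR's filter on low counts, called 0 rows (0% of those tested) at a Benjamini-Hochberg adjusted p of 0.05, and 1 row had an unadjusted p under 0.05. DESeq2 and limma-voom also called 0, with 8 and 14 rows under 0.05 before adjustment. miR-128-3p, the only one of the 8 to pass the filter, had a log2 fold change of 0.45, trained over sedentary (SE 0.47, 95% interval −0.51 to 1.40, edgeR adjusted p = 0.953). The interval still holds a fall by 0.51 and a rise by 1.40 on the log2 scale, so this comparison does not show equal levels. The median log2 fold change of the 76 rows was −0.0080.

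miR-128-3p gave different point values in both ranges of title numbers. The log2 fold change was 0.0096 (SE 0.68) in numbers 1 to 13 and 0.64 (SE 0.64) in numbers 14 to 32, and neither range differed beyond its error. The difference between the ranges was 0.79 in a joint edgeR fit (SE 0.92, adjusted p = 0.757). Trained 26 carried much of the pooled value, which was 0.20 without that library, and leaving out sedentary 29 raised it to 0.90.

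The other members did not pass the filter and were compared by a permutation test of mean CPM run on all 260 rows with a count, which called 0 rows (0%), with 8 under 0.05 before adjustment. Leaving out sedentary 16, 19 or 29 led to 1 call each, miR-106b-3p, which is none of the 8 (permutation adjusted p = 0.0337, 0.0338 and 0.0337). miR-122-5p averaged 1029 ± 1645 CPM in trained (SD, n = 13) and 592 ± 1222 CPM in sedentary libraries (SD, n = 12), a difference of 437 CPM (two-sided permutation adjusted p = 0.905). The groups overlapped from 0 upward. This difference rested on single libraries: it was 56.6 CPM without trained 1 and 774 CPM without sedentary 12. It was 772 CPM among numbers 1 to 13 and 228 CPM among numbers 14 to 32. miR-192-5p differed by −63.2 CPM, trained minus sedentary (permutation adjusted p = 1). miR-9a-5p differed by −33.4 CPM (permutation adjusted p = 0.905), nearly all of it from sedentary 3.

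Whether miR-128-3p follows the muscle miRNAs was asked over the 25 libraries, with log2 CPM scaled by the library total. Spearman's rho of miR-128-3p with each of the other 75 tested rows ran from −0.54 to 0.41 with a median of −0.16, and 0 of 75 rows (0%) passed a permutation p adjusted over all of them. 11 rows were under 0.05 before adjustment. With this scaling, 3 of the 8 muscle rows tested had a positive rho, and the median of the 8 was −0.13. However, 3 of the 8 are the near-identical miR-133 rows described below. The median falls among these rows (rho −0.12 and −0.13), so it says little about the other muscle rows. miR-1-3p had a rho of 0.37 (Pearson r 0.35, permutation p = 0.0680 and 0.0814, adjusted p = 0.306 for rho), and r was 0.46 without the 2 libraries farthest from its median. miR-206-3p, which is most abundant in slow-twitch muscle, had a rho of 0.28 and an r of 0.10 (permutation adjusted p = 0.396 for rho), and r was −0.038 without its 2 farthest libraries. miR-1b had a rho of 0.13 and miR-486 one of −0.38. miR-378a-3p, which is processed from an intron of a gene for a mitochondrial biogenesis coactivator, had a rho of −0.45 (permutation p = 0.0273, adjusted p = 0.306).

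miR-133a-3p fell into separate clusters of libraries, so its pooled rho of −0.13 is not read as a relation. 6 libraries had under 10 counts, and sedentary 29, with 11 counts, lay between them and the other 18 and was nearer to the 6. Within the 18 libraries above the widest gap rho was −0.061 (r −0.086, permutation p = 0.809 and 0.737). Within the 7 below it rho was 0.59 (r 0.52, exact permutation p = 0.179 and 0.0571). Of these 7, trained 21, sedentary 4 and sedentary 12 had no count of miR-133a-3p and were tied at 4.58 log2 CPM. The rest of the 7 had at most 11 counts, so values below the gap rest on levels near the floor. With sedentary 29 moved to the upper cluster, rho was −0.20 in 19 libraries (r −0.28, permutation p = 0.408 and 0.244) and 0.33 in 6 (r 0.46, exact permutation p = 0.533 and 0.300). The near-identical rows miR-133b-3p and miR-133c had a pooled rho of −0.12 and −0.13.

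The rows most like miR-128-3p by rho were miR-148a-3p (0.41), miR-1-3p (0.37) with its near-identical row miR-3571 (0.37), and let-7a-5p (0.35) with its near-identical row miR-3596a (0.35). The rows least like it were miR-92a-3p (−0.54, permutation p = 0.00597), miR-146a-5p (−0.47), and miR-125b-5p with its near-identical row miR-3588 (−0.46). None of these passed after adjustment with this scaling. The level of miR-128-3p had an r of 0.12 and a rho of 0.17 with the log2 library total (permutation p = 0.582 and 0.422), an r of 0.18 without the 2 farthest libraries, and an r of 0.054 and −0.060 within the lower and upper range of title numbers.

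**Figure D3:**
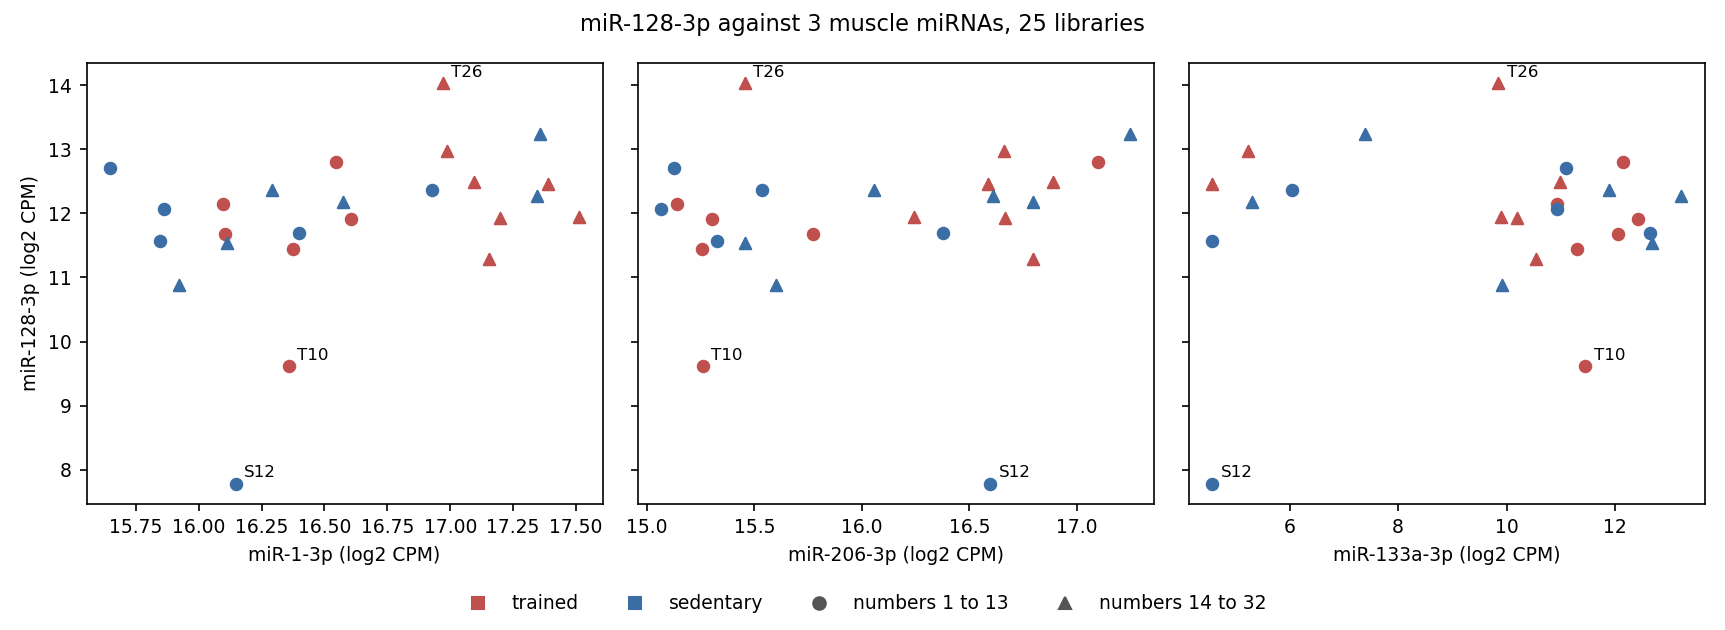
log2 CPM of miR-128-3p (vertical axis) against log2 CPM of miR-1-3p, miR-206-3p and miR-133a-3p (horizontal axes), 1 point per library, by group and range of title numbers. The points scatter widely for miR-1-3p and miR-206-3p, and for miR-133a-3p 6 libraries with under 10 counts lie far left of 18 others, with sedentary 29 between them.

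These answers depended on the scaling, and each scaling is therefore given. With TMM factors, which scale each library by the bulk of its rows, 10 of 75 rows (13.3%) passed. miR-1-3p was then at a rho of 0.64 (permutation adjusted p = 0.0292) and miR-206-3p at 0.61 (permutation adjusted p = 0.0347). On the authors' normalized values, 10 of 75 rows (13.3%) passed, with miR-1-3p at 0.58 (permutation adjusted p = 0.0333) and miR-206-3p at 0.50 (permutation adjusted p = 0.0750). With a centred log ratio, in which each library is set against the mean log of its own 76 tested rows, 22 of 75 rows (29.3%) passed. miR-1-3p was at 0.79 (permutation adjusted p = 0.000250) and miR-206-3p at 0.73 (permutation adjusted p = 0.000675). The 3 near-identical miR-133 rows (133c, 133b-3p and 133a-3p) had a negative pooled rho under all 4 scalings. Because of the clusters described above, this pooled sign is not read as a relation. Which scaling measures the levels best was not tested.

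Over the 8 muscle rows, 4 were positive and 2 passed with TMM factors (median rho −0.089), 3 were positive and 1 passed on the normalized values (median −0.15), and 5 were positive and 4 passed with the centred log ratio (median 0.45). Here too, 3 of the 8 are the near-identical miR-133 rows. miR-1b was at 0.50, 0.22 and 0.79 in that order and passed with the centred log ratio (permutation adjusted p = 0.000250). miR-378a-3p turned from −0.45 with the library total to 0.028 with TMM factors, −0.20 on the normalized values and 0.49 with the centred log ratio (permutation adjusted p = 0.0459 for the last). miR-486 was negative except with the centred log ratio, where it was at 0.40 without passing (permutation adjusted p = 0.120).

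Rows outside the muscle list passed as well. miR-148a-3p passed with TMM factors (0.60), the normalized values (0.55) and the centred log ratio (0.75), at permutation adjusted p = 0.0347, 0.0387 and 0.000375. let-7a-5p passed with TMM factors (0.56) and the centred log ratio (0.77), at permutation adjusted p = 0.0381 and 0.000300. On the negative side miR-125b-5p passed under the same 3 scalings (−0.56, −0.65 and −0.58, permutation adjusted p = 0.0381, 0.0157 and 0.0120), and miR-92a-3p passed on the normalized values (−0.57, permutation adjusted p = 0.0333).

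Within the ranges of title numbers, which hold only 12 and 13 libraries, 0 of 75 rows passed under any of the 4 scalings. miR-1-3p had a rho of 0.084 in numbers 1 to 13 and 0.25 in numbers 14 to 32 when scaled by the total. The corresponding values were 0.13 and 0.48 with TMM factors, 0.11 and 0.36 on the normalized values, and 0.26 and 0.69 with the centred log ratio. Both miRNAs were higher in the upper range: the median of miR-128-3p was 3561 CPM in numbers 1 to 13 and 4926 CPM in numbers 14 to 32, and that of miR-1-3p was 78280 and 139779 CPM. The part of these ranges in the pooled rho was not tested beyond the values within each. The spread of both also differed, since the highest library of miR-128-3p was 85.4 times the lowest and that of miR-1-3p was 3.64 times.

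**Figure D4:**
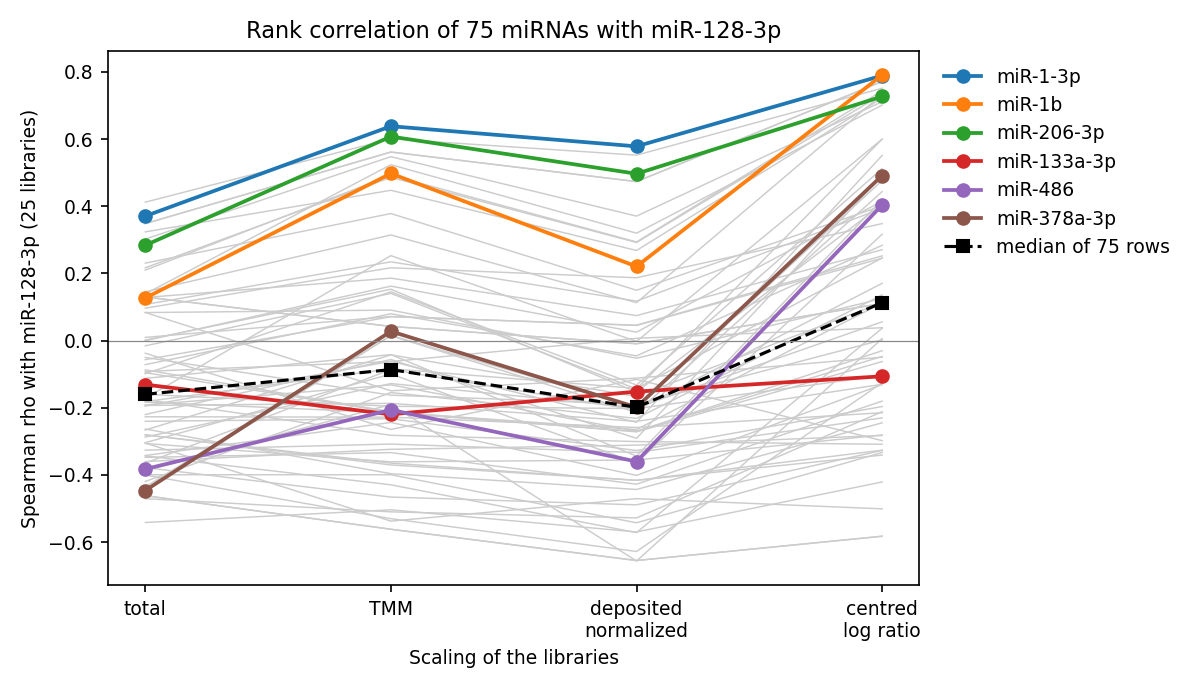
Spearman's rho of miR-128-3p with each of the other 75 tested rows under 4 scalings (horizontal axis), with 6 muscle rows as coloured lines, rows outside the muscle list as grey lines and the median of all 75 as a dashed line. miR-1-3p moves from 0.37 with the library total to 0.79 with the centred log ratio, and the median of all rows moves from −0.16 to 0.11.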

How the data were processed

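Raw counts per mature miRNA, deposited by the authors as whole numbers, were the main unit. 16275 empty cells were read as 0, since all of them are 0 in the second table. That table holds the authors' normalized signal, equal to the count divided by 1 factor per library (largest relative deviation 1.12e-09). Per the submitters' processing notes, fastp 0.20.0 was used, and so was DESeq2 1.36. Not given in the sources used here are the tools for alignment and counting, the strand setting, how reads matching several miRNAs were handled, and the genome build. No coordinates are printed for that reason. Molecular identifiers are named in no label, so counts are of reads.

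Groups came from the sample labels, 1 library per rat. The labels give no litter or batch, so p-values measure the spread between these libraries. The members, the lists and the title-number boundary were chosen with earlier results of these data known. CPM was the count over the library's total of all rows, near-identical rows included. edgeR 4.0.16 (R 4.3.3) was fitted to all 25 libraries with TMM factors and filterByExpr (minimum count 10, minimum total 15), which kept 76 rows holding 96.9% to 99.0% of counts. Mean CPM was compared by two-sided permutation tests of 100000 resamples over the 260 rows with a count. Correlations used log2 CPM (prior count 2) over the library total, against every other kept row, with permutation p-values of 100000 resamples. Each family of p-values was adjusted by Benjamini-Hochberg with a threshold of 0.05. Alternatives were DESeq2 1.42.0, limma-voom (limma 3.58.1), other scalings, no filter, near-identical rows counted once, depth as a covariate, both ranges of title numbers and each library left out. The scripts were tested on simulated data, which checks the code and does not show how small a change these libraries could detect.

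Named rows were the 8 miRNAs, other arms of their precursors, rows near-identical to them (within 10% where a pair sums to at least 10 counts), kept muscle rows, the 5 rows with the highest and the 3 with the lowest rho with miR-128-3p, and list members with a count. Rows near-identical to those, miR-27a-3p, miR-27b-3p and miR-106b-3p were named after their values were seen.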

Additional observations from a re-analysis of the deposited data

How the results depend on the processing

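Without the filter on low counts, edgeR called 66 of 260 rows (25.4%), none of them among the 8. It called 0 under each of the other settings run, each library left out included. The permutation test of CPM called 0 to 1 rows with each library left out. The log2 fold change of miR-128-3p was 0.29 to 0.99 under the other tests, scalings and filters and did not pass in any (limma-voom, at 0.99, had an adjusted p of 0.272). Without single libraries it was 0.20 to 0.90, with an edgeR adjusted p of 0.562 to 0.991. Scaling by the total moved the median of all tested rows from −0.0080 to −0.29, and DESeq2 size factors moved it to −0.16.

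The rho of miR-128-3p with miR-1-3p passed with TMM factors (0.64), the authors' normalized values (0.58) and the centred log ratio (0.79), and that with miR-206-3p passed with TMM factors (0.61) and the centred log ratio (0.73). Among numbers 1 to 13 the sign turned for miR-206-3p with the library total (−0.13) and the normalized values (−0.042), and for miR-133a-3p with the total (0.17), TMM factors (0.17), the normalized values (0.22) and the centred log ratio (0.16). With single libraries left out, the rho under total scaling stayed at 0.31 to 0.49 for miR-1-3p and 0.21 to 0.38 for miR-206-3p. For miR-133a-3p it was −0.27 to −0.065, pooled over its clusters and so not read as a relation. The cause of these changes was not tested. The other scalings within both ranges and both splits of miR-133a-3p were added after seeing the data. No paired analysis was possible because the trained and sedentary titles share no number.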

Other observations

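In trained 10, 2 arms that were at 0 in every other library had counts together: miR-194-3p had 23 counts (674 CPM) and miR-128-2-5p had 17 counts (498 CPM). The same library had 97 counts of miR-122-5p and 0 of miR-194-5p. Of the RefSeq-matched rows, 222 of 660 with 1 precursor (33.6%) and 13 of 27 with 2 or more (48.1%) had a count. Whether the number of precursors affected the counting of any single miRNA was not tested. The leukocyte list took 0.140% ± 0.129 of trained (SD, n = 13) and 0.258% ± 0.154 of sedentary counts (SD, n = 12), and 3 of its 6 rows were at 0, among them miR-142-3p and miR-223-3p. miR-146a-5p alone held 3762 of the 4112 counts of that list.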
